A study of Homo sapiens with 3 samples.

Results

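The 9 genes FGFBP1, AXL, ECM1, ZKSCAN1, SFN, STEAP3, PPP2R1A, ATP6V0D1 and TENT5C were chosen by their values on these arrays: each read higher in cells given IL1RN guides than on both control arrays. They are 9 of 11963 genes named on the array and carry 13 of its 19070 probe sets with 1 gene symbol. A probe set is a group of short DNA probes that reports 1 transcript or a few near-identical ones. HEK293T cells, a human embryonic kidney line transformed with the SV40 large T antigen, had been transfected with dCas9VP160, a nuclease-dead Cas9 fused to the VP160 activation domain, and with guide RNA. The 3 arrays, 1 per guide condition, were sgIL1RN1~3, whose target is the promoter of IL1RN, sgTetO, which targets the TetO promoter, and sgTetOmut, a mutant form of sgTetO that has no target and served as control; sgTetO, for which the labels give no human target, is taken as the second control. All 3 cell populations received the activator, and untransfected cells were not analysed here. With 1 array per group the values carry no replicate error and no test between conditions was possible.

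The 9 genes have no single pathway in common. FGFBP1 and ECM1 are secreted and AXL is a receptor tyrosine kinase at the cell surface, all best known from epithelia and connective tissue. SFN (14-3-3 sigma) and STEAP3, a reductase that readies endosomal iron for transport, are known targets of the tumour suppressor p53, a protein that large T antigen binds. PPP2R1A, ATP6V0D1 and TENT5C are parts of a phosphatase, of a proton pump and of the machinery that lengthens poly(A) tails. ZKSCAN1 is a zinc finger protein with a SCAN domain. A dCas9 activator raises transcription where its guide pairs with DNA next to a PAM, so genes that differ between guides can be set against the targeted gene.

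The targeted gene stood far from these 9. IL1RN, the gene of the interleukin-1 receptor antagonist, had a log2 value of 7.01 by probe set 212657_s_at on sgIL1RN1~3, against 2.28 on sgTetO and 2.23 on sgTetOmut. Both control values lay under the background taken from chip controls, described later, so the difference of 4.73 from the higher control is bounded at 3.61 or more against that background. Of the 5 IL1RN probe sets this was the 1 past a difference of 1 log2 unit (2-fold). Set 212659_s_at was 0.93 above sgTetO and 0.52 above sgTetOmut. Sets 216243_s_at, 216244_at and 216245_at, under that background on all 3 arrays, did not show the rise. Their differences from the controls ran from -0.46 to -0.16. The arrays were otherwise close, with medians over all genes of 6.23 on sgIL1RN1~3, 6.19 on sgTetO and 6.19 on sgTetOmut. The 2 controls were the pair most alike, with Pearson's r across genes of 0.997, against 0.996 for sgIL1RN1~3 with either, though genes are not replicates. Genes at least 2-fold over both other arrays numbered 5 (0.0418%) on sgIL1RN1~3, 0 on sgTetO and 46 (0.385%) on sgTetOmut, and at 1.5-fold they numbered 86 on sgIL1RN1~3, 13 on sgTetO and 74 on sgTetOmut. Each difference below is therefore given against both controls.

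Promoter sequences are shown for IL1RN, the gene the guides were directed to, and for the 4 genes of the group that were at least 2-fold above both controls. They come from RefSeq (GRCh38.p14), in which all 9 genes matched by symbol, and run 5′ to 3′ on the strand of the gene from 250 bases before to 50 bases after its listed start. Capitals mark every match, on either strand, to the TATA box (TATAAA), the CCAAT box, the GC box (GGGCGG), the AP-1 motif (TGANTCA) or the E-box (CACGTG), and no match overlapped another here.
IL1RN, chr2:113117721-113118020, plus strand: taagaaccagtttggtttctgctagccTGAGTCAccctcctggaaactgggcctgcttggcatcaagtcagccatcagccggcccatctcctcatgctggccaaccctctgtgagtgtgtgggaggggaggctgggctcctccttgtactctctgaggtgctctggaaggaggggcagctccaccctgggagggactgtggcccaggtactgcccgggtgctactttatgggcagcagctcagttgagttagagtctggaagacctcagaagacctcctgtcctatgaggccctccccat
FGFBP1, chr4:15938691-15938990, minus strand: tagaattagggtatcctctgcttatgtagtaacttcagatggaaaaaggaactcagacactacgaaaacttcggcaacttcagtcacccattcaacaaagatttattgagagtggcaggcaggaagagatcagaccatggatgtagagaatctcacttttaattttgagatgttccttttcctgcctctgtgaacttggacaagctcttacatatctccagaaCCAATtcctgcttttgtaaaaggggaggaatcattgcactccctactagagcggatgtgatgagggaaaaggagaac
AXL, chr19:41218973-41219272, plus strand: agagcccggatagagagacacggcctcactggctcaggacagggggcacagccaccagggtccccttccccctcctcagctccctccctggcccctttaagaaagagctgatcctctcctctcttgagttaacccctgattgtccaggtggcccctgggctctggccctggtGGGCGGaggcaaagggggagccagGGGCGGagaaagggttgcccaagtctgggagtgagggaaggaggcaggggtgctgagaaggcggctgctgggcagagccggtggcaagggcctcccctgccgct
ECM1, chr1:150507859-150508158, plus strand: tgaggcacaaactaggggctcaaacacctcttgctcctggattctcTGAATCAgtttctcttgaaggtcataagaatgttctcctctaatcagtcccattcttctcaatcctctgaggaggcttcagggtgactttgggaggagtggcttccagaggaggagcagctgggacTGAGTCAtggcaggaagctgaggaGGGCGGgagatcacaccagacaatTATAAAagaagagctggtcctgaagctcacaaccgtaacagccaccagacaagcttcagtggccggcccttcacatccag
ZKSCAN1, chr7:100015346-100015645, plus strand: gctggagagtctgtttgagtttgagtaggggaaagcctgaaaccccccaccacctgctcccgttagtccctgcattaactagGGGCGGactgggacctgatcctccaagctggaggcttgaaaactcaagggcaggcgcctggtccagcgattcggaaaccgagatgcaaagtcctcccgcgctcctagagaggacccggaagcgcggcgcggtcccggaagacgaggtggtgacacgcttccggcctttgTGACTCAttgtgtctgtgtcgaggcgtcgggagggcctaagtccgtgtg
FGFBP1 had the promoter poorest in G and C of the 9, at 42.0%, and AXL had 66.0%, ECM1 51.7% and ZKSCAN1 60.7%, while the median over 35116 promoters was 58.7%. The AP-1 letters lay in the windows of IL1RN, ECM1, ZKSCAN1 and SFN and in 7.71% of all promoters, and the ECM1 window held them 2 times. The TATA letters lay in the ECM1 window at position -30, counted from the listed start, and in 11.5% of all promoters. The GC box was in 7 of the 9 windows, against 45.0% of all promoters, and the CCAAT box in 4 of the 9, against 34.6%. ATP6V0D1 held the E-box at position -59, as did 7.26% of all promoters somewhere in the window. These matches describe letters only, and the guides' own sequences were not used here.

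Of the 9 genes, 4 were at least 2-fold above both controls by the probe set that stands for the gene, which is its brightest by the mean of all 3 arrays. Over all genes 5 of 11963 passed that limit, or 0.0418%, and the remaining 1 was IL1RN. All 4 were genes of low signal: none reached the median of all genes on the sgIL1RN1~3 array, and 3 of them lay at or near the background on the controls. The background is taken here from the 27 chip probe sets for Bacillus subtilis transcripts, of which the highest read 3.40 on sgIL1RN1~3, 3.40 on sgTetO and 3.29 on sgTetOmut. The Bacillus sets themselves differed little between arrays: 7 of 27 were above both controls on sgIL1RN1~3, and their differences from the higher control ran from -0.28 to 0.12 log2 units.

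**Figure D1:**
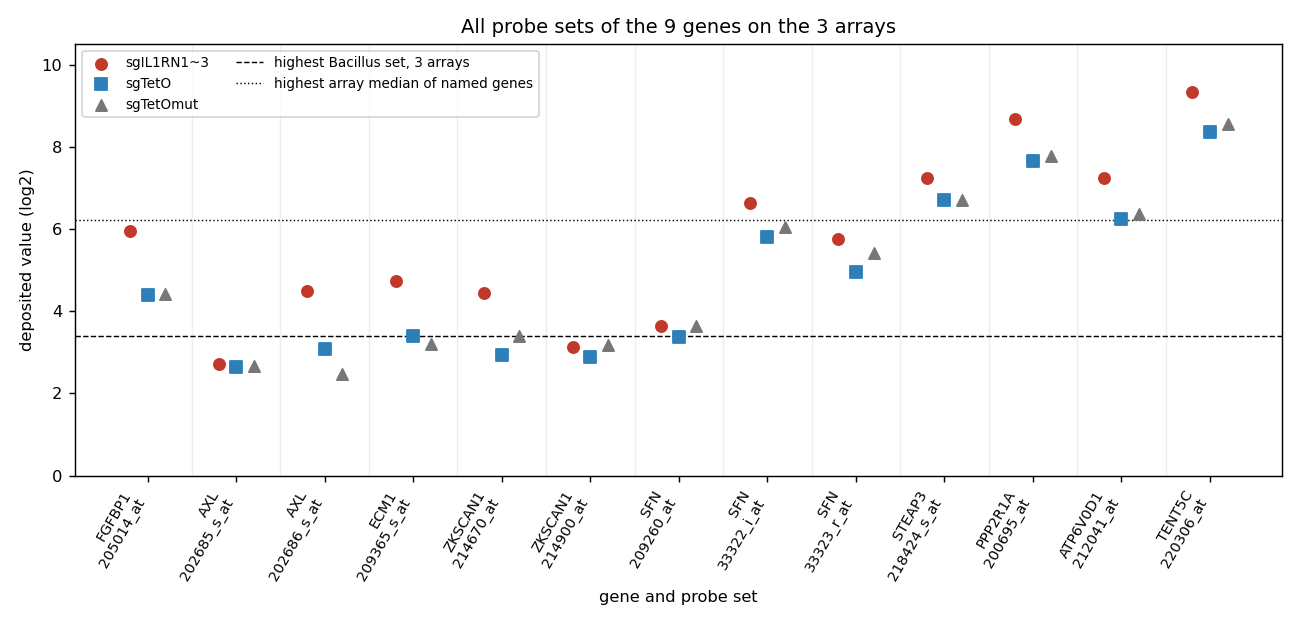
Deposited log2 value (y axis) of all 13 probe sets of the 9 genes (x axis) on the sgIL1RN1~3, sgTetO and sgTetOmut arrays, 1 point per array; the dashed line is the highest Bacillus set over the 3 arrays (3.40) and the dotted line the highest array median of all named genes (6.23). The sgIL1RN1~3 point lies above both controls for 12 of the 13 sets (of all sets with 1 symbol 38.7% do), and AXL 202685_s_at and ZKSCAN1 214900_at lie under the dashed line on all 3 arrays.

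FGFBP1, a secreted carrier that frees fibroblast growth factors from the matrix, was the gene furthest above both controls after IL1RN. Its log2 value was 5.96 on sgIL1RN1~3, against 4.39 on sgTetO and 4.43 on sgTetOmut. The value was thus high on the sgIL1RN1~3 array alone, and all 3 values were above the Bacillus sets. The difference was 1.56 log2 units from sgTetO (2.95-fold) and 1.53 from sgTetOmut (2.89-fold), while the controls differed by -0.03 (sgTetO minus sgTetOmut). Across the 100 genes nearest to it in control level, the difference between the 2 control arrays had an SD of 0.20. Such an SD, given for other genes below too, is no replicate error and does not cover the sgIL1RN1~3 array. Over all genes the SD was 0.22 between the controls. It was wider for sgIL1RN1~3, at 0.26 against sgTetO and 0.28 against sgTetOmut. The array has 1 FGFBP1 set, 205014_at, so no other set of the gene can be compared with it.

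AXL, the receptor for the growth factor GAS6, had a log2 value of 4.49 by set 202686_s_at on sgIL1RN1~3, against 3.07 on sgTetO and 2.46 on sgTetOmut. Both control values were under the highest Bacillus set, so only a bound can be given, at least 2.12-fold for sgTetO and at least 2.30-fold for sgTetOmut, against the highest Bacillus value of each array. The measured differences were 1.42 and 2.03 log2 units. The second AXL set, 202685_s_at, read 2.71 on sgIL1RN1~3, 2.64 on sgTetO and 2.68 on sgTetOmut, at background on all 3 arrays, and did not show the difference.

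ECM1, a secreted glycoprotein of skin and connective tissue, had a log2 value of 4.73 on sgIL1RN1~3, against 3.40 on sgTetO and 3.19 on sgTetOmut. Both controls were under the highest Bacillus set of their array, which bounds the fold at 2.51 or more over sgTetO and 2.72 or more over sgTetOmut. The measured differences were 1.33 and 1.54 log2 units, and the SD between controls over the 100 nearest genes was 0.24.

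ZKSCAN1 read 4.43 by set 214670_at on sgIL1RN1~3, against 2.93 on sgTetO and 3.40 on sgTetOmut. It lay under the highest Bacillus set on sgTetO and above it on sgTetOmut, by 0.11 log2 units. It was at least 2.04-fold over sgTetO and 2.05-fold over sgTetOmut, close to the limit. The second set, 214900_at, read 3.12 on sgIL1RN1~3, 2.88 on sgTetO and 3.17 on sgTetOmut, under the highest Bacillus set on all 3 arrays. It was the 1 set of the 13 not above both controls, by -0.05 log2 units.

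Near the background the deposited values were coarse. The exact value that ECM1 had on sgTetO and ZKSCAN1 had on sgTetOmut was held by 109 probe sets on sgTetO and 119 on sgTetOmut, and the value of AXL set 202686_s_at on sgTetOmut by 184 sets of that array. The control levels of these 3 genes therefore have no fine order. With all probe sets of a gene averaged, AXL was 0.75 and ZKSCAN1 0.49 log2 units above the higher control, both under the limit, whereas FGFBP1 and ECM1 have 1 set each. With 16 added to the linear values, which damps low signals, FGFBP1 was 1.06 above the higher control and stayed past the limit, while AXL at 0.66, ECM1 at 0.68 and ZKSCAN1 at 0.50 did not.

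By the set that stands for each gene, SFN and STEAP3 showed smaller differences at higher levels. SFN, a 14-3-3 protein that holds cells before mitosis after DNA damage, had 3 sets. Set 33322_i_at read 6.63 on sgIL1RN1~3, 5.80 on sgTetO and 6.06 on sgTetOmut, which is 0.83 log2 units above sgTetO and 0.57 above sgTetOmut (1.49-fold). Set 33323_r_at, annotated to the same transcript record, read 5.75 on sgIL1RN1~3, against 4.96 on sgTetO and 5.43 on sgTetOmut, a difference of 0.79 and 0.33. The third, 209260_at, read 3.65 on sgIL1RN1~3, 3.36 on sgTetO and 3.63 on sgTetOmut, so that it stood 0.02 above the higher control and close to the Bacillus sets. All 3 SFN sets were lowest on sgTetO, and the controls differed by -0.26, -0.46 and -0.26 (sgTetO minus sgTetOmut), which is of the order of the difference from sgTetOmut in 33323_r_at.

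STEAP3, known in humans also as a p53-inducible transmembrane protein, read 7.24 on sgIL1RN1~3, against 6.70 on sgTetO and 6.70 on sgTetOmut. The 2 controls were 0.00 apart and the sgIL1RN1~3 array was 0.54 log2 units above each, 1.45-fold over either. The SD between controls over the 100 nearest genes was 0.19, which is no measure of error for a gene chosen by its difference. It had the smallest difference of the 9 genes and ranked 128 among all genes.

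PPP2R1A, ATP6V0D1 and TENT5C reached the median of all genes on the sgIL1RN1~3 array and stayed just under 2-fold. PPP2R1A, the scaffold subunit of protein phosphatase 2A, read 8.67 on sgIL1RN1~3, against 7.65 on sgTetO and 7.76 on sgTetOmut. The gap was 1.02 log2 units (2.03-fold) to sgTetO and 0.91 (1.88-fold) to sgTetOmut, so that it passes the limit against the first control and misses it against the second. The SD between controls over the 100 nearest genes was 0.16. ATP6V0D1, which joins the membrane and peripheral sectors of the vacuolar proton pump, read 7.24 on sgIL1RN1~3, against 6.24 on sgTetO and 6.37 on sgTetOmut, a difference of 1.00 (2.00-fold, short of the limit before rounding) and 0.87 (1.83-fold). TENT5C, a cytoplasmic poly(A) polymerase, read 9.34 on sgIL1RN1~3, against 8.35 on sgTetO and 8.54 on sgTetOmut. Its differences were 0.99 (1.99-fold) and 0.80 (1.74-fold), and the SD between controls over its 100 nearest genes, 0.35, was the widest of the 9. Each of these 3 genes has 1 set, and all 3 were lower on sgTetO than on sgTetOmut, by 0.11, 0.12 and 0.19 log2 units.

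The differences of the 9 genes from the higher control ran from 0.54 to 1.53 log2 units with a median of 0.91, against a median of -0.04 over all genes. They chose the genes, so nothing can be read from that gap. By measured difference FGFBP1, AXL, ECM1 and ZKSCAN1 held ranks 2 to 5 among all genes. With controls raised to the highest Bacillus value they stood at 1.53, 1.09, 1.33 and 1.03, so that AXL and ECM1 change places and the order of these low genes is not settled. PPP2R1A ranked 9, ATP6V0D1 12, TENT5C 18, SFN 92 and STEAP3 128. At a limit of 1.5-fold 7 of the 9 were above both controls, SFN and STEAP3 being the exceptions, where 0.719% of all genes were. Being above both controls by any amount was common: 4479 genes, 37.4%, were so on sgIL1RN1~3. Just inside that criterion lay AXL 202685_s_at at 0.03 and SFN 209260_at at 0.02, and just outside it lay ZKSCAN1 214900_at at -0.05.

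**Figure D2:**
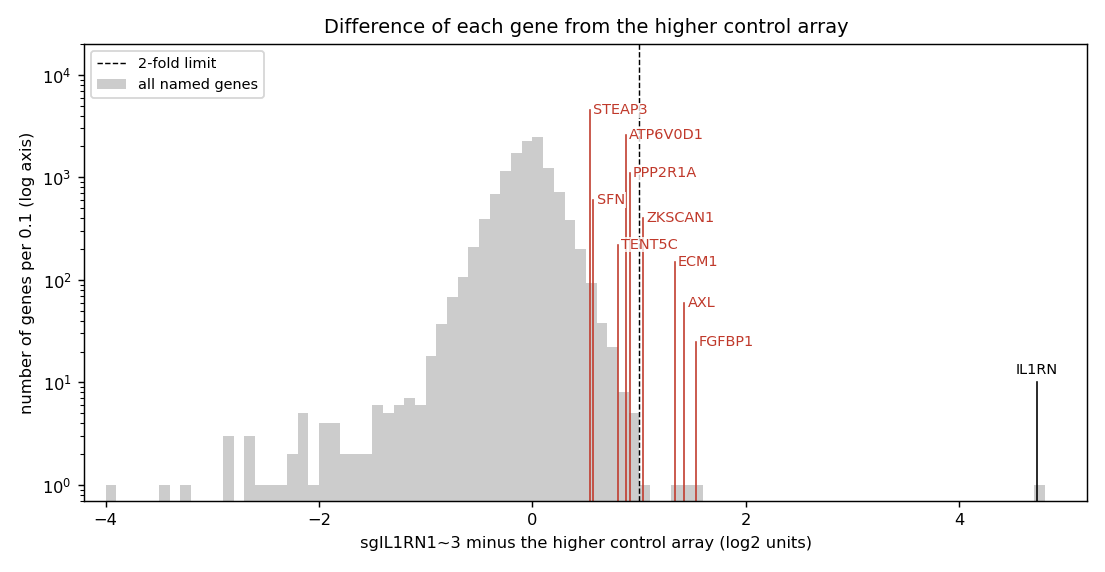
Number of genes (y axis, log scale) by the difference of sgIL1RN1~3 from the higher control array in log2 units (x axis, bins of 0.1), for all 11963 genes in grey; red lines mark the 9 genes, the black line IL1RN and the dashed line the 2-fold limit, and line heights only separate the names. FGFBP1, AXL, ECM1 and ZKSCAN1 lie past the limit between 1.04 and 1.53, below IL1RN at 4.73, whose controls are at background (at least 3.61 when bounded), and SFN and STEAP3 lie at 0.57 and 0.54 on the slope of the grey distribution.

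The values on the 2 control arrays also served to choose the 9 genes. On both of these arrays 6 of the 9 genes were above the Bacillus sets. For sgTetO minus sgTetOmut these 6 genes differed by -0.26 (SFN) to 0.00 (STEAP3) log2 units, with a median of -0.12. The median over all genes, those at background included, was -0.01. AXL, ECM1 and ZKSCAN1 lay under the Bacillus sets on 1 or both controls, and no difference is given for them.

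The chip's control sets along the transcripts of ACTB and GAPDH moved with the same array. With sgIL1RN1~3 the set at the 5′ end of ACTB read 8.43, against 7.48 on sgTetO and 7.61 on sgTetOmut. It was thus 0.95 and 0.82 log2 units higher, the middle set was 0.69 and 0.64 higher, and the 3′ set was 0.06 and 0.07 higher. For GAPDH the 5′ set was 0.84 and 0.66 higher and the middle set 0.58 and 0.54, while at the 3′ end the differences were -0.01 and 0.03. Comparing the controls, both 5′ sets were lower on sgTetO by 0.13 and 0.18. FGFBP1, AXL, ECM1, ZKSCAN1, PPP2R1A and ATP6V0D1 were further above the higher control than the ACTB 5′ set, among 17 genes of all those measured, and TENT5C, SFN and STEAP3 were not. The place of TENT5C depended on the reference. It was at 0.80 against 0.82 for the ACTB 5′ set from the higher control, but at 0.99 against 0.95 from sgTetO. The chip controls for ribosomal RNA followed the ends only in part. Their middle sets were 0.57 and 0.34 higher for 18S and 0.48 and 0.31 higher for 28S. The 5′ set of 18S was 0.59 and 0.11 higher, but under the highest Bacillus set on all 3 arrays. The 3′ set of 18S differed by 0.09 and -0.10. For 28S the 5′ set differed by -0.10 and 0.08, and the 3′ set lay under the highest Bacillus set on all 3 arrays. The part of the chip control differences in the values of the 9 genes was not tested.

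**Figure D3:**
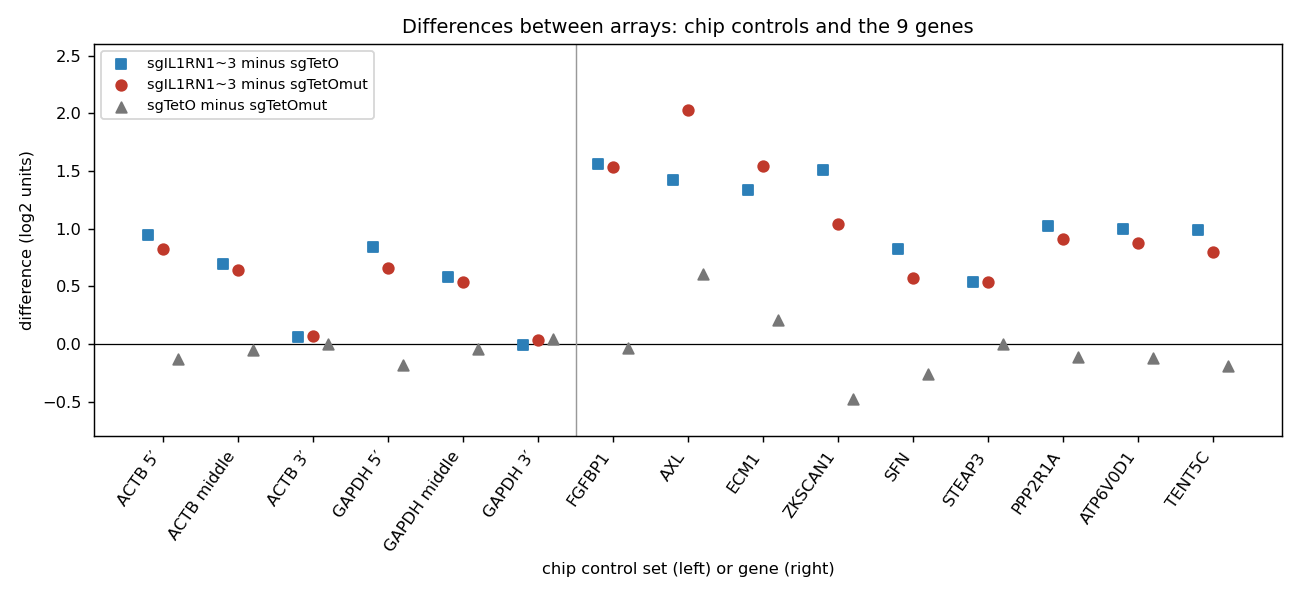
Difference in log2 units (y axis) of sgIL1RN1~3 minus sgTetO, sgIL1RN1~3 minus sgTetOmut and sgTetO minus sgTetOmut for the ACTB and GAPDH chip control sets (left) and the 9 genes (right), 1 point per pair of arrays. The 5′ and middle control sets lie between 0.54 and 0.95 against either control and the 3′ sets between -0.01 and 0.07, while the 9 genes lie between 0.54 and 2.03 against either control; AXL, ECM1 and ZKSCAN1 are at background on 1 or both controls, so their points against those arrays have no exact size.

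The partners and relatives of the 9 genes come from 10 lists, drawn up with earlier results of these arrays known. The 9 genes themselves were picked by their values, so a gap between them and their lists is set by that choice. By the set that stands for each gene, none of the other measured genes in 9 of the lists was 1.5-fold above or below both controls on sgIL1RN1~3. In the list of p53 targets TP53I3 passed 1.5-fold, at 0.98 log2 units above the higher control, more than 5 of the 9 genes. Other sets of the listed genes could pass, as FBLN1 202995_s_at did at 0.90 and 0.71 and BAX 208478_s_at at 0.73 and 0.69. Over all genes 0.719% were 1.5-fold above and 0.568% were 1.5-fold below both controls, so counts of 0 in lists of this size say little by themselves. The counts above both controls by any amount, given next, stand against 37.4% of all genes above and 33.6% below.

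Among the fibroblast growth factors, their receptors and heparan sulfate carriers, 5 of 11 measured genes were above and 4 below both controls, with a median difference from the mean of the controls of 0.06 log2 units. FGFR1, a receptor, was 0.30 above sgTetO and 0.23 above sgTetOmut, the syndecan SDC1 was 0.21 and 0.25 above, and the ligand FGF2 was -0.19 and -0.14 away. The second FGF2 set agreed in sign, at -0.23 and -0.15. Of the AXL relatives 3 of 4 were above both controls and 0 below, with a median of 0.26. The receptor TYRO3 was 0.35 above each control. PROS1, a ligand of the family, was 0.45 and 0.24 above, and GAS6, the ligand of AXL, was -0.07 and 0.21 away. Of the proteins that bind ECM1 or share its matrix, 2 of 6 were above and 3 below, with a median of -0.05. The representative set of the matrix protein FBLN1 was 0.05 and 0.07 above, and its set 202995_s_at was 0.90 and 0.71 above. FN1, fibronectin, was -0.24 and -0.32 away, though its sets 214701_s_at and 214702_at, at background on both controls, read above both.

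The other 14-3-3 proteins, abundant in these cells, had 4 of 5 genes above both controls and 1 below, with a median of 0.08 log2 units. YWHAH was 0.09 and 0.33 above sgTetO and sgTetOmut, YWHAZ was 0.15 and 0.08 above by its standing set and 0.57 and 0.54 above by 200641_s_at, and YWHAQ was -0.11 and -0.12 away, though its sets disagreed in sign. The STEAP family and the genes of iron uptake had 2 of 11 above and 2 below, with a median of 0.05. FTL, the light chain of ferritin, was 0.27 and 0.21 above, and by its second set, 213187_x_at, 0.65 and 0.55 above, which exceeds STEAP3. STEAP1B was 0.11 above each control, and the receptor TFR2 was -0.33 and -0.22 away. The TFR2 set 210215_at, under the highest Bacillus set on all 3 arrays, was 0.40 and 0.63 above.

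For PPP2R1A the other subunits and regulators of the phosphatase had 8 of 22 genes above and 6 below, with a median of 0.01 log2 units. The activator PTPA was 0.55 and 0.38 above, and its 2 further sets were 0.34 and 0.16 and 0.26 and 0.08 above. The regulatory subunit PPP2R5D was 0.24 and 0.12 above, and 0.83 and 0.40 above by set 211159_s_at, and PPP2R2B was -0.16 and -0.19 away. For ATP6V0D1 the other subunits of the proton pump had 7 of 18 above and 6 below, with a median of 0.03. ATP6V1B2, of the catalytic sector, was 0.73 and 0.41 above, and ATP6V1G1, of the stalk, was -0.37 and -0.39 away. ATP6V0A1, of the membrane sector, was 0.40 and 0.35 above, but its set 205095_s_at, near background, was -0.49 and 0.14 away. The poly(A) polymerases and other relatives of TENT5C had 3 of 9 above and 2 below, with a median of 0.03, and PAPOLG was 0.17 and 0.06 above, TUT4 0.00 and 0.17, and MTPAP -0.06 and -0.26 away. The SCAN domain zinc fingers had 4 of 18 above and 9 below, with a median of -0.03. Among them ZSCAN31 was 0.65 and 0.22 above, ZNF24 was 0.20 and 0.13 above with further sets that read lower, and ZSCAN16 was -0.61 and -0.54 away.

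Besides SFN and STEAP3, 13 p53 targets were measured, of which 10 were above and 0 below both controls, with a median of 0.23 log2 units against 0.01 over all genes. The list was drawn up with earlier results of these arrays known, so the count is no independent evidence. TP53I3, an oxidoreductase, read 6.16 on sgIL1RN1~3, against 4.998 on sgTetO and 5.19 on sgTetOmut, a difference of 1.16 and 0.98. It was the gene of this list furthest above the controls, and it was further from them than SFN or STEAP3. BAX, which opens mitochondria in apoptosis, was 0.48 and 0.59 above, and its second set was 0.73 and 0.69 above. GADD45A was 0.00 and -0.13 away.

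**Figure D4:**
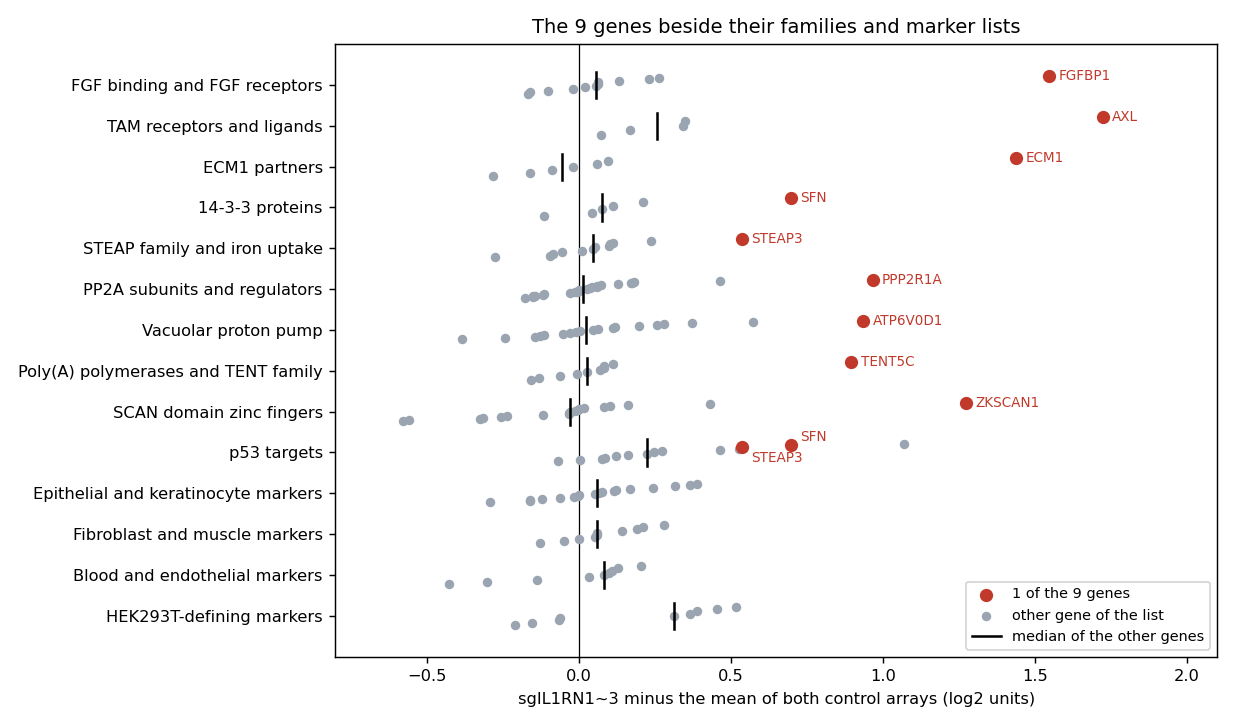
Value on sgIL1RN1~3 minus the average control value in log2 units (x axis) for each measured gene of 10 gene lists and 4 marker lists (y axis), 1 point per gene; red points are the 9 genes, grey points the other genes, and black bars the medians of the grey points. The red points lie to the right of all grey points in each gene list except the p53 targets, where TP53I3 lies at 1.07 and BAX level with STEAP3 at 0.54; the marker lists hold no red point.

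By pattern over the 3 arrays, measured as the distance between log2 values centred on each gene's mean among 9385 genes above the Bacillus sets on at least 1 array, the gene nearest to FGFBP1 was TP53I3, at 0.40 log2 units. Nearest to AXL was INHBE, at 0.60, nearest to ECM1 was SNCG, at 0.31, and nearest to ZKSCAN1 was KAT6A, at 0.19. For the other members the nearest gene lay closer, within 0.09: GPKOW for SFN, TMPRSS4 for STEAP3, C3 for PPP2R1A, MAP1LC3C for ATP6V0D1 and PARM1 for TENT5C. TMPRSS4 held the same value, 3.40, on both controls, the value shared by 109 or more probe sets on each. Over 3 arrays such likeness is a description of these values alone.

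All 9 HEK293T markers measured, among them PAX2, NEFL, VIM and KRT18, were above the highest Bacillus set on every array. So were 76.5% of all genes on sgIL1RN1~3, 76.0% on sgTetO and 77.8% on sgTetOmut, and 3 of 9 blood and endothelial markers on all arrays. LHX1 was close to that limit, at 3.51 on sgIL1RN1~3 and on sgTetO and 3.64 on sgTetOmut. On sgIL1RN1~3, 5 of the HEK293T markers exceeded both controls and 3 were below both. VIM, an intermediate filament protein, was 0.52 and 0.51 log2 units above sgTetO and sgTetOmut, the enolase ENO2 was 0.52 and 0.39 above, and PAX2 was -0.07 and -0.36 away. The summed linear level of these markers was 4454 on sgIL1RN1~3, 3449 on sgTetO and 3505 on sgTetOmut, carried mostly by NEFL, VIM and ENO2 (30.8%, 30.2% and 26.0% of the first sum). Since FGFBP1, SFN and ECM1 are known from epithelia, markers of epithelia and keratinocytes were set beside them. Of these markers 7 of 18 were above both controls and 4 below, and 9 lay at background on all 3 arrays. By the set that stands for each gene, none of these markers was 1.5-fold apart. Their summed linear level was 951 on sgIL1RN1~3, 895 on sgTetO and 886 on sgTetOmut, of which DSC3, a desmosomal cadherin, made 67.3% on the first. KRT18 was 0.44 and 0.34 above, KRT8 0.37 above each control and EPCAM -0.29 away from each. Fibroblast and muscle markers had 6 of 10 above and 2 below, with sums of 659, 618 and 600 on sgIL1RN1~3, sgTetO and sgTetOmut. Blood and endothelial markers had 3 of 9 above and 2 below, with sums of 84.5, 83.5 and 89.2 in the same order. In bulk RNA, a change in the share of a kind of cell and a change in RNA per cell cannot be told apart.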

How the data were processed

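Gene expression was measured on 3 single-channel arrays of HEK293T cells, 1 per guide condition. The authors deposited log2 values of 22277 probe sets, from 1.36 to 14.5, and the log2 unit was judged from this range. The authors used affy, per the submitters' processing notes; how background, normalization and summary were handled is not given in the sources used here. Such values are relative to the bulk of genes, and depth does not apply: the number of arrays limits the precision. Probe sets were named from GEO's platform annotation: 19070 had 1 symbol, 1043 several (not named, and none with 1 of the 9 genes) and 2164 none listed. Each gene was represented by its brightest set by the mean of all 3 arrays, and every set of the 9 genes is given. A gene was counted at 1 log2 unit (2-fold) above both controls. Folds over values under the highest of 27 Bacillus sets are bounds. The members and lists (14 lists, 213 entries, 169 distinct genes measured) were chosen with earlier results of these data known. Besides the 9 genes and IL1RN, the text names, from each list, the 2 highest and the 1 lowest gene above background on all arrays by difference from the mean of the controls, and the gene nearest in pattern to each member; other names were chosen after their values were seen. Alternatives used limma 3.58.1 in R 4.3.3; pandas 2.3.3 and numpy 2.4.6 under Python 3.11.15 served for the rest. Simulated data with known changes were used to check the counting.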

Additional observations from a re-analysis of the deposited data

How the results depend on the processing

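The count of 4 genes at least 2-fold above both controls was 4 under quantile scaling, under cyclic loess scaling, with the standing set chosen on the control arrays alone, with a minimum at the highest Bacillus set, against sgTetOmut alone, and with control values raised to the highest Bacillus set (this last chosen after seeing the data). It was 5 against sgTetO alone, where PPP2R1A was added and 14 of all genes (0.117%) passed, as many as against sgTetOmut alone. It was 2 with the mean of all probe sets (FGFBP1 and ECM1, the only genes of all 11963 to pass there), 1 with 16 added to the linear values (FGFBP1, 1 of 2 genes), 0 where the median level had to be reached (1 gene of all), 7 at a limit of 1.5-fold (86 of all) and 0 at 3-fold (1 of all). All 9 genes were above both controls under each scaling, set choice, reference and added value, and 5 remained counted where the median level had to be reached. Of 72 differences of single genes recomputed under these settings, 61 moved by less than the SD between controls over the 100 nearest genes, 11 moved by more and 0 changed sign. The 61 include values that could not move, so that count says little about stability. A gene with 1 set keeps its value under any set choice, and 1 of the 2 single-control settings always repeats the main value. Signs against a single control were fixed by the choice of the genes. Over the settings FGFBP1 ran from 1.06 to 1.56, AXL from 0.66 to 2.03, ECM1 from 0.68 to 1.54 and ZKSCAN1 from 0.49 to 1.51 log2 units. The lower values came from adding 16 or averaging sets, which by construction shrink genes near background or mix in sets at background. SFN ran from 0.31 to 0.83, and STEAP3, PPP2R1A, ATP6V0D1 and TENT5C stayed between 0.48 and 1.02. No paired analysis was possible because each group held 1 array, and leaving out an array was possible only as the single-control settings.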

Other observations

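Of the 25 genes furthest above both controls on sgIL1RN1~3, 18 were outside the group of 9, named here after their values were seen. Besides IL1RN and TP53I3, C3, a complement protein, read 5.42 on sgIL1RN1~3, against 4.43 on sgTetO and 4.42 on sgTetOmut, and SNCG, gamma-synuclein, read 5.10 on sgIL1RN1~3, against 4.10 on sgTetO and 3.95 on sgTetOmut. Both were 0.99 log2 units above the higher control, between ZKSCAN1 at 1.04 and PPP2R1A at 0.91. SST, the hormone somatostatin, and TTPA, a vitamin E carrier, also ranked among the 25, at 0.84 and 0.75, with values under the highest Bacillus set on all 3 arrays.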
